A study of Homo sapiens with 23 samples.

Results

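SUDHL-4 is an established human line of diffuse large B-cell lymphoma (DLBCL) of the germinal center B-cell-like (GCB) subtype, and the data below compare its polysomal RNA after 20 mM ethanol (EtOH) for 48 h with that of cells given water. The comparison holds 6 of the 23 arrays of the series, 3 with EtOH and 3 with water, taken by the treatment in their labels. A probe entered when its detection p-value, which sets its signal against the negative controls of the same array, did not exceed 0.02 on any array of 1 or both of the 2 groups. This kept 14450 of 47231 probes, which became 11733 entries after probes of 1 gene were averaged, namely 8780 genes with a symbol and 2953 probes without a single symbol. The study treated SUDHL-4 and a second DLBCL line, SUDHL-2, with EtOH beside water, or with 40 nM INK128, an inhibitor of the mTOR kinase, for 24 h beside DMSO. It asked how EtOH acts on mTOR signaling and on the mRNAs that are being translated. All cells grew in RPMI medium with fetal bovine serum, and EtOH cells were kept in sealed flasks so that the alcohol stayed in the medium. None of the sources used here says whether the water cells were sealed too, so EtOH and the sealing of the flask cannot be told apart. Each line is a single line, and the labels do not say whether the arrays of a group came from separate cultures, although the methods call them independent replicates. The p-values below therefore measure the spread between these arrays.

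An mRNA in translation carries several ribosomes and sediments deep in a sucrose gradient, so RNA of the heavy fractions reports both how much of an mRNA a cell holds and how well it is translated. mTOR complex 1 promotes translation of many mRNAs, above all those of ribosomal proteins, and it also supports sterol and lipid synthesis through the SREBP factors and glycolysis through the hypoxia factor HIF1. B-cell lymphomas of the GCB type keep the machinery of the germinal center B cell, including signaling from the B-cell receptor and antigen presentation on MHC class II. EtOH itself is oxidised mainly in the liver, and lymphocytes have little alcohol dehydrogenase.

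Each array received 0.5 μg of RNA pooled from fractions 9 to 11 of 11, so the arrays compare transcripts within that pool, and a change of the pool as a whole is not visible. The 6 arrays detected 14987 to 15262 probes above background, and arrays of 1 group correlated at 0.988 to 0.995 with EtOH and 0.995 to 0.997 with water. The median SD of an entry was 0.134 on the log2 scale with EtOH and 0.0995 with water. EtOH replicate 1 stood apart in its ribosomal RNA probes, genes picked out once their values were known. RNA28SN5, the 28S rRNA, was at 7.25 on that array and at 11.39 and 10.98 on the other EtOH arrays, against 11.91, 12.06 and 11.95 with water, and RNA18SN5, the 18S rRNA, was at 9.27, 10.63 and 10.56 with EtOH and at 10.76, 10.90 and 11.06 with water (normalised log2 signal). Counts are therefore given also without that array. Of the markers fixed to check the labels, 7 of 8 GCB genes were measured (all but S1PR2) and 3 of 8 of the activated B-cell type. PAX5 was not above background, while MS4A1, CD79A, CD79B and CD22 of the B lineage were. No marker of natural killer or red blood cells was above background, and 2 of 8 T-cell markers (CD2 and LCK) and 2 of 7 myeloid markers (LYZ and CD68) were. Of 8 markers of fibroblasts and epithelial cells DCN alone was measured, and the summed signal of that list was 4790 to 5909 with EtOH and 3767 to 4531 with water. Of 6 plasma cell markers 5 were measured, with 1 called (TNFRSF17), and their summed signal was 11623 to 13955 with EtOH and 11146 to 11503 with water. What part either had in the results was not tested.

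Few polysomal entries of SUDHL-4 passed the threshold used here with EtOH, and more of those were higher than lower. Of 11733 entries, 64 (0.545%) passed an adjusted p under 0.05 (limma's moderated test over the 11 arrays of the EtOH experiment, with Benjamini-Hochberg adjustment), 46 higher (0.392%) and 18 lower (0.153%). In all 64 the 3 EtOH arrays lay clear of the 3 water arrays, as they did in 13.2% of all entries upward and 12.7% downward. Called rises were 1.40-fold to 2.37-fold, the median size of a called change was 0.63 on the log2 scale, and the smallest was 0.48. At the thresholds of the study (p under 0.05, a false discovery rate of no more than 0.3, and beyond 1.5 a Z-ratio, which is the fold change over the SD of all fold changes), 636 entries were higher (5.42%) and 516 lower (4.4%). The median of all log2 fold changes was 0.001. An unadjusted limma p under 0.05 was reached by 1884 of the 11733 entries, so the number called is not a measure of how many changed. With median centring 35.4% of the entries at the study's thresholds were higher, against 55.2% here.

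**Figure D1:**
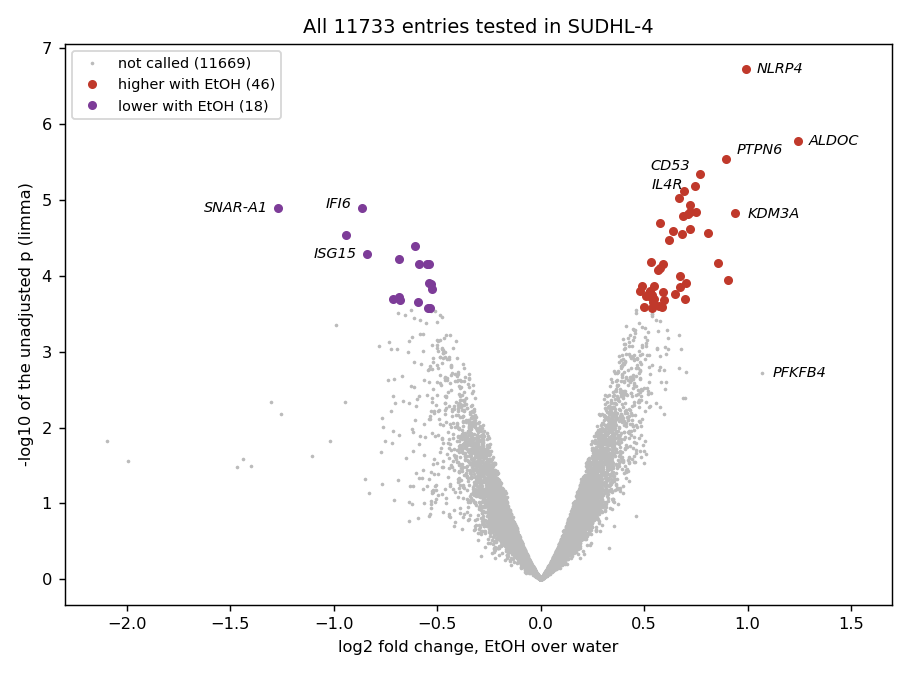
Each point is 1 of the 11733 entries, with the log2 fold change of EtOH over water on the x axis and the -log10 of the unadjusted p from limma on the y axis. The 46 called rises and 18 called falls are coloured, and PFKFB4 lies far to the right with 1.07 but is not called.

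How many entries were called depended on single arrays and on the pairing of replicates. Without EtOH replicate 1, 2 or 3 there were 51, 59 and 5 calls, and without water replicate 1, 2 or 3 there were 4, 15 and 2. With the replicate numbers of the titles as a block, 366 entries were higher (3.12%) and 276 lower (2.35%), and all 64 were among them. That count depended on the probes tested, since the same block over 14636 entries detected in any group of the series called 77, and a block by the numbers of the sample names, which pair SUDHL-4 arrays differently, called 0 over those entries and 621 over the 11733. Values with the block below use the titles and the 11733 entries, and they rest on a pairing that is assumed. The 6 arrays fitted alone called 29, of which 27 were among the 64. Of the called genes that the naming rule gives, only NLRP4 and ALDOC kept an adjusted p under 0.05 with each of the 6 arrays left out in turn. The other 33 of these 35 genes lost the call without at least 1 of the 6 arrays, and the highest adjusted p is given beside their values. Called genes named after their values were seen were not followed with arrays left out.

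The largest called rise was that of a glycolytic enzyme, and 3 further called rises belonged to genes known as targets of HIF1. ALDOC, an aldolase of glycolysis found mainly in brain, had 11.03, 10.77 and 11.32 with EtOH, against 9.88, 9.49 and 10.02 with water (normalised log2 signal, the scale of all levels below). Its lowest EtOH array lay above its highest water array, and it rose 2.37-fold (log2 fold change 1.24, SE 0.16, adjusted p = 0.0097). KDM3A, a histone demethylase that removes methyl groups from lysine 9 of histone H3 and is induced by HIF1, had 8.65, 8.40 and 8.67 with EtOH and 7.66, 7.51 and 7.74 with water. KDM3A rose 1.92-fold (0.94, SE 0.15, adjusted p = 0.0126). GBE1, the glycogen branching enzyme, had 8.13, 8.15 and 8.42 with EtOH and 7.46, 7.61 and 7.61 with water, a rise of 0.67 (adjusted p = 0.0352). P4HA1, a subunit of the collagen prolyl hydroxylase, had 10.17, 9.86 and 10.16 with EtOH and 9.44, 9.28 and 9.36 with water, a rise of 0.70 (adjusted p = 0.0393, and 0.35 with adjusted p = 0.165 without the detection filter). In each of these 4 genes all EtOH arrays lay above all water arrays. Left out in turn, water replicates 1, 2 and 3 and EtOH replicate 3 each ended the calls of KDM3A, GBE1 and P4HA1, and EtOH replicate 1 that of P4HA1, with adjusted p up to 0.081, 0.18 and 0.178.

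The promoters of these 4 genes are shown because the core of the hypoxia response element, the DNA word that HIF1 binds, can be looked for in them. Each line gives a stretch of 60 bases around the match from the region upstream of the annotated start, 5′ to 3′ on the strand of the gene (RefSeq, GRCh38.p14), with the match in capitals, which is ACGTG or its reverse complement CACGT in the first 3 and GCGTG in KDM3A. The windows lie at chr17:28576896-28576955 (minus strand), chr3:81761725-81761784 (minus), chr10:73096920-73096979 (minus) and chr2:86441311-86441370 (plus), in the order of the lines.
ALDOC: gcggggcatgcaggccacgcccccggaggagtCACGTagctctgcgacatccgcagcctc
GBE1: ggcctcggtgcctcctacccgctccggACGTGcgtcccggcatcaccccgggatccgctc
P4HA1: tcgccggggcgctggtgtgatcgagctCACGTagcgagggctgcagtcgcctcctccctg
KDM3A: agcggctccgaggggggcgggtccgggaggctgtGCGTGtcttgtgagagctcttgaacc
The match nearest to the start lay 28 bases upstream in ALDOC, 112 in GBE1, 86 in P4HA1 and 26 in KDM3A, and ALDOC held 3 matches of ACGTG in the 250 bases upstream of its start. Searched on both strands over 250 bases, ACGTG was found in 25% of 7225 tested genes with a promoter in the table, in 12 of 17 listed HIF1 targets (70.6%) and in 5 of 34 called rises (14.7%). GCGTG was found in 46.7% of the tested genes, in 8 of 17 listed HIF1 targets (47.1%) and in 13 of 34 called rises (38.2%). The share of promoters with either form was not counted. A match is a description of the letters and not a binding site.

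Of 21 measured HIF1 targets outside glycolysis, 3 rose (0.392% of all entries) and 0 fell (0.153%). In the list 18 of 21 were fitted higher, with a median of 0.22 (0.16 to 0.37 over the scalings, and 0.34 without EtOH replicate 2) against 0.001 over all entries. At the thresholds of the study 10 were higher (5.42% of all entries) and 0 lower. With the replicate block 10 were called, all higher (3.12% of all entries). Among those 10, and named here after their values were seen, BNIP3, which marks mitochondria for removal, had 0.58 (adjusted p = 0.0926), ANKRD37 0.53 (0.101), CITED2, a brake on HIF1, 0.47 (0.135) and EGLN1, the oxygen sensor that marks HIF1 for destruction, 0.36 (0.16). VEGFA, the vascular growth factor and a textbook HIF1 target, had 0.04 (adjusted p = 0.868). Of 21 measured genes of glucose uptake and glycolysis, ALDOC alone was called, and the median was 0.14, with 15 fitted higher. PFKFB4, which sets the level of the glycolytic activator fructose 2,6-bisphosphate, had 9.28, 8.77 and 9.20 with EtOH and 8.32, 7.39 and 8.34 with water. Its groups did not overlap, but water replicate 2 lay far below the other water arrays, and the difference of 1.07 had SE 0.28 and adjusted p = 0.0987 (0.00324 with the block). ENO2, an enolase, had 0.44 (adjusted p = 0.0926, 0.0483 with the block), PGK1 0.27 (0.346) and LDHA, which makes lactate, 0.02 (0.946). With the block 4 glycolysis genes were called, all higher.

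Enzymes of cholesterol synthesis lay higher with EtOH, with 1 of 17 called, against 0.392% of all entries called higher. HMGCS1, which makes the HMG-CoA from which cholesterol is built, had 11.69, 11.48 and 11.72 with EtOH, against 10.77, 10.91 and 11.04 with water. All 3 EtOH arrays lay above the water arrays, and HMGCS1 rose 1.65-fold (0.72, SE 0.12, adjusted p = 0.0161). SC5D, a sterol desaturase late in the pathway, had 8.73, 8.12 and 8.26 with EtOH and 7.63, 7.89 and 7.77 with water, a difference of 0.61 (adjusted p = 0.0833, 0.0312 with the block). IDI1, the isomerase that supplies the isoprenoid building block, had 10.13, 9.96 and 10.27 with EtOH and 9.48, 9.36 and 9.72 with water, a difference of 0.60 (adjusted p = 0.118, 0.00674 with the block). In both, the EtOH arrays lay above the water arrays without reaching the threshold. Over the list 16 of 17 were fitted higher, and the median was 0.30 (0.25 to 0.31 over the scalings tried). Of the 17, 6 were higher (5.42% of all entries) and 0 lower at the thresholds of the study. With the block 5 were called, all higher (3.12% of all entries). The call of HMGCS1 ended without any 1 of the 3 water arrays or EtOH replicate 3, with adjusted p up to 0.104 without water replicate 1.

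The neighbouring lipid lists lay on the same side of 0 with no gene called. All 12 measured genes of fatty acid synthesis were fitted higher, by a median of 0.25. Of these, 4 were higher (5.42% of all entries) and 0 lower at the thresholds of the study. Among them SCD, which puts the first double bond into fatty acids, had 11.82, 11.80 and 11.88 with EtOH and 11.38, 11.38 and 11.68 with water (0.35, adjusted p = 0.126, 0.0447 with the block), and ACLY, which makes cytosolic acetyl-CoA, had 0.32 (adjusted p = 0.219). FASN, the fatty acid synthase itself, had 0.06 (adjusted p = 0.829). Of 14 genes of sterol control and uptake, 10 were fitted higher with a median of 0.13. NPC2, which carries cholesterol out of lysosomes, had 0.35 (adjusted p = 0.0973), INSIG1, which holds SREBP in the endoplasmic reticulum, 0.36 (0.182), MYLIP, the ligase that degrades the LDL receptor, 0.38 (0.15), and SREBF2, the main sterol SREBP, 0.00 (0.995). The first 3 were called with the block (0.0366, 0.0376 and 0.0341).

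The promoter of HMGCS1 is shown with that of HLA-DPB1, described further on, because both hold CCAAT, the word bound by the general factor NF-Y, which works beside SREBP at sterol genes and beside RFX at MHC class II genes. The 60 bases lie at chr5:43313480-43313539 (minus strand) and chr6:33075888-33075947 (plus strand), with CCAAT or its reverse complement ATTGG in capitals.
HMGCS1: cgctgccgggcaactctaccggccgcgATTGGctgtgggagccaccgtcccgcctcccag
HLA-DPB1: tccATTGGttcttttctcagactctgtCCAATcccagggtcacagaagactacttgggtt
CCAAT was found in the 250 upstream bases of 12 of 15 cholesterol synthesis genes with a promoter in the table (80.0%), of 16 of 34 called rises (47.1%) and of 37.4% of all tested genes. TCACCCCAC, a sterol regulatory element, was in 0 of the 15 and in 0.374% of the tested genes.

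Several genes of B-cell surface and signaling rose. PTPN6, the phosphatase SHP-1 that dampens the B-cell receptor, had 9.39, 9.08 and 9.07 with EtOH, against 8.31, 8.44 and 8.12 with water. The groups were far apart, and PTPN6 rose 1.86-fold (0.90, SE 0.12, adjusted p = 0.0114). Without the detection filter, which averages in probes not above background, the log2 fold change of PTPN6 was 0.30 (adjusted p = 0.0556). CD53, a tetraspanin of leukocytes, had 10.34, 10.35 and 10.24 with EtOH and 9.38, 9.70 and 9.53 with water, a rise of 0.77 (SE 0.11, adjusted p = 0.0126), with 0.73 and 0.81 from its 2 probes. IL4R, the receptor chain for interleukin 4 and interleukin 13, had 9.39, 9.21 and 9.22 with EtOH and 8.56, 8.57 and 8.45 with water, a rise of 0.75 (SE 0.11, adjusted p = 0.0126). ITGB7, an integrin subunit of gut homing, had 11.68, 11.72 and 11.69 with EtOH and 10.89, 11.19 and 11.00 with water, a rise of 0.67 (adjusted p = 0.0126). PTAFR, the receptor of platelet-activating factor, had 9.55, 9.48 and 9.30 with EtOH and 8.38, 8.87 and 8.64 with water, a rise of 0.81 (adjusted p = 0.0161). None of the 5 genes overlapped between the groups. The calls of PTPN6 and CD53 ended without water replicate 1 or 3 (adjusted p up to 0.0765), and those of IL4R, ITGB7 and PTAFR without water replicate 1, water replicate 3 or EtOH replicate 3 (up to 0.104, 0.104 and 0.105).

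Smaller rises were seen for the semaphorin SEMA4A (0.51, adjusted p = 0.0434), the B-cell coactivator POU2AF1, which works with the octamer factors at immunoglobulin promoters (0.52, adjusted p = 0.0432), the proton channel HVCN1, which tunes the oxidative burst behind the B-cell receptor (0.62, adjusted p = 0.0178), and TNFRSF17, the receptor BCMA of plasma cells (0.53, adjusted p = 0.0422). HVCN1 and TNFRSF17 are named after their values were seen. SEMA4A and POU2AF1 lost the call without any 1 of the 6 arrays, with adjusted p up to 0.216 without water replicate 1. LMO2, a GCB marker and a partner of hematopoietic transcription factors, had 10.26, 10.07 and 10.08 with EtOH and 9.50, 9.56 and 9.18 with water, a rise of 0.72 (SE 0.11, adjusted p = 0.0126, up to 0.105 without water replicate 3, the call ending too without water replicate 1 or EtOH replicate 3). LMO2 was the 1 called gene of the 7 measured GCB markers, all 7 were fitted higher with a median of 0.19, and their summed signal was 10827 to 13001 with EtOH and 8437 to 10308 with water. What part a change of state of the cells had in the surface genes was not tested.

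Over the whole lists few genes were called. Of all entries 0.392% were called higher, and at the thresholds of the study 5.42% were higher and 4.4% lower. Of 29 measured genes of the B-cell receptor and its proximal signaling, PTPN6 alone was called, 7 were higher and 1 lower at the thresholds of the study, and the median was 0.12. CBLB, a ubiquitin ligase that restrains the receptor, had 0.34 (adjusted p = 0.104, 0.0429 with the block), and INPP5D, the lipid phosphatase SHIP1, also 0.34 (adjusted p = 0.138). CD79B, a signaling chain of the receptor, was the 1 lower gene, with -0.36 (adjusted p = 0.14), and the kinase LYN had 0.01 (adjusted p = 0.985). Of 28 homing receptors, adhesion molecules and tetraspanins, CD53, ITGB7 and SEMA4A were called, 6 were higher and 0 lower at the thresholds of the study, and the median was 0.10. Of 21 B-cell transcription factors 1 was called and 3 were higher at those thresholds. BCL6, the master repressor of the germinal center, had 0.17 (adjusted p = 0.564), and AFF3 0.35 (adjusted p = 0.174).

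Genes of MHC class II, which presents peptides to helper T cells, lay higher with EtOH, with 1 of 19 called (0.392% of all entries called higher). HLA-DPB1, the beta chain of HLA-DP, had 9.92, 10.33 and 10.32 with EtOH and 9.20, 9.78 and 9.50 with water. EtOH replicate 1 and water replicate 1 were each the lowest of their group, and HLA-DPB1 rose 1.62-fold (0.70, SE 0.14, adjusted p = 0.044, 0.00454 with the block, up to 0.216 without water replicate 1). The call also ended without water replicate 3, EtOH replicate 2 or EtOH replicate 3. HLA-DRB3 had 0.58 (adjusted p = 0.0833) and HLA-DRB1 0.51 (adjusted p = 0.138), but HLA-DRB genes are near copies of each other whose probes may share signal, so these entries are uncertain. HLA-DOA, part of the modulator HLA-DO, had 10.53, 10.32 and 10.45 with EtOH and 10.27, 9.91 and 9.90 with water (0.41, adjusted p = 0.121), and CD74, the invariant chain, had 0.33 (adjusted p = 0.208). CIITA, the coactivator that switches the class on, had 0.16 (adjusted p = 0.426), and HLA-DRA 0.06 (adjusted p = 0.805). The list had a median of 0.23 with 16 of 19 fitted higher. Of the 19, 8 were higher (5.42% of all entries) and 0 lower at the thresholds of the study. With the block 6 were called, all higher (3.12% of all entries). Class I gave another picture, with 0 of 18 called and a median of -0.01 that changed sign with the scaling (-0.05 to 0.03). Its member with the smallest p was HLA-E, which had 11.11, 11.43 and 11.03 with EtOH and 10.46, 10.71 and 10.68 with water (0.58, adjusted p = 0.0571, 0.0126 with the block).

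The list with the highest count of called rises held FOXO factors, their targets and antiproliferative regulators. Of its 18 measured genes 5 were higher (0.392% of all entries) and 0 lower. The lists were drawn up with earlier results of these data known, so this ranking is a description only. KLHL24, an adaptor of a ubiquitin ligase, had 8.39, 7.89 and 8.11 with EtOH and 7.08, 7.18 and 7.42 with water, a rise of 1.87-fold (0.90, SE 0.17, adjusted p = 0.0382). YPEL5, a subunit of the CTLH ubiquitin ligase, had 9.66, 9.09 and 9.14 with EtOH and 8.53, 8.33 and 8.45 with water, a rise of 1.81-fold (0.86, adjusted p = 0.0269). In both, EtOH replicate 1 was the highest array and no array overlapped with the other group. BTG1, an antiproliferative factor often mutated in DLBCL, had 12.14, 11.81 and 12.10 with EtOH and 11.35, 11.36 and 11.29 with water, a rise of 0.68 (SE 0.11, adjusted p = 0.0161). PIK3IP1, an inhibitor of PI3K, had 9.55, 9.34 and 9.42 with EtOH and 8.87, 8.85 and 8.87 with water, a rise of 0.58 (SE 0.09, adjusted p = 0.0146). TXNIP, which lowers glucose uptake and binds thioredoxin and is named after its values were seen, had 11.37, 11.41 and 11.65 with EtOH and 10.74, 11.12 and 10.78 with water, a rise of 0.60 (adjusted p = 0.044). The median of the list was 0.11 (0.05 to 0.21 over the scalings, and 0.17 without EtOH replicate 1 or 2). FOXO1 had 0.31 (adjusted p = 0.182) and FOXO3 0.03 (adjusted p = 0.924). The calls of YPEL5, BTG1 and PIK3IP1 ended without any 1 of the 3 water arrays or EtOH replicate 3 (adjusted p up to 0.128, 0.123 and 0.105), and that of KLHL24 also without EtOH replicate 1 (up to 0.182).

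Among called genes outside these lists, NLRP4 gave the smallest adjusted p of all. NLRP4, a member of the NLR family normally found in germ cells, had 8.10, 8.12 and 8.14 with EtOH, against 7.16, 7.25 and 6.97 with water, and rose 1.99-fold (0.99, SE 0.11, adjusted p = 0.00224, up to 0.0215 without water replicate 1). It was not above background on any SUDHL-2 array, and floor values of that line entered the spread of the fit. With the 6 SUDHL-4 arrays alone its adjusted p from limma was 0.012. HSDL2, a peroxisomal dehydrogenase-like protein, had 8.11, 7.98 and 8.19 with EtOH and 7.34, 7.42 and 7.25 with water, a rise of 0.75 (adjusted p = 0.0126, up to 0.105 without water replicate 3). TPP1, a peptidase of the lysosome, had 8.33, 8.12 and 8.21 with EtOH and 7.48, 7.68 and 7.44 with water, a rise of 0.69 (adjusted p = 0.0126, up to 0.11 without water replicate 3). No array of these 3 genes overlapped with the other group, and the calls of HSDL2 and TPP1 also ended without water replicate 1 or EtOH replicate 3. TPP1 was the 1 call among 27 lysosomal genes (0.545% of all entries were called), whose median was 0.12. LIPA, the acid lipase, had 0.53 (adjusted p = 0.143, 0.0248 with the block). Further called rises, named after their values were seen, were those of the phosphatase ACP3 (0.72, adjusted p = 0.0126), the poly(A) polymerase TENT5C, a tumor suppressor of plasma cells (0.71, adjusted p = 0.0126), the Cdc42 exchange factor FGD2 (0.64, adjusted p = 0.0161), RIPOR2, an inhibitor of RhoA (0.57, adjusted p = 0.0297), and the peptidase PRCP (0.50, adjusted p = 0.0492).

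**Figure D2:**
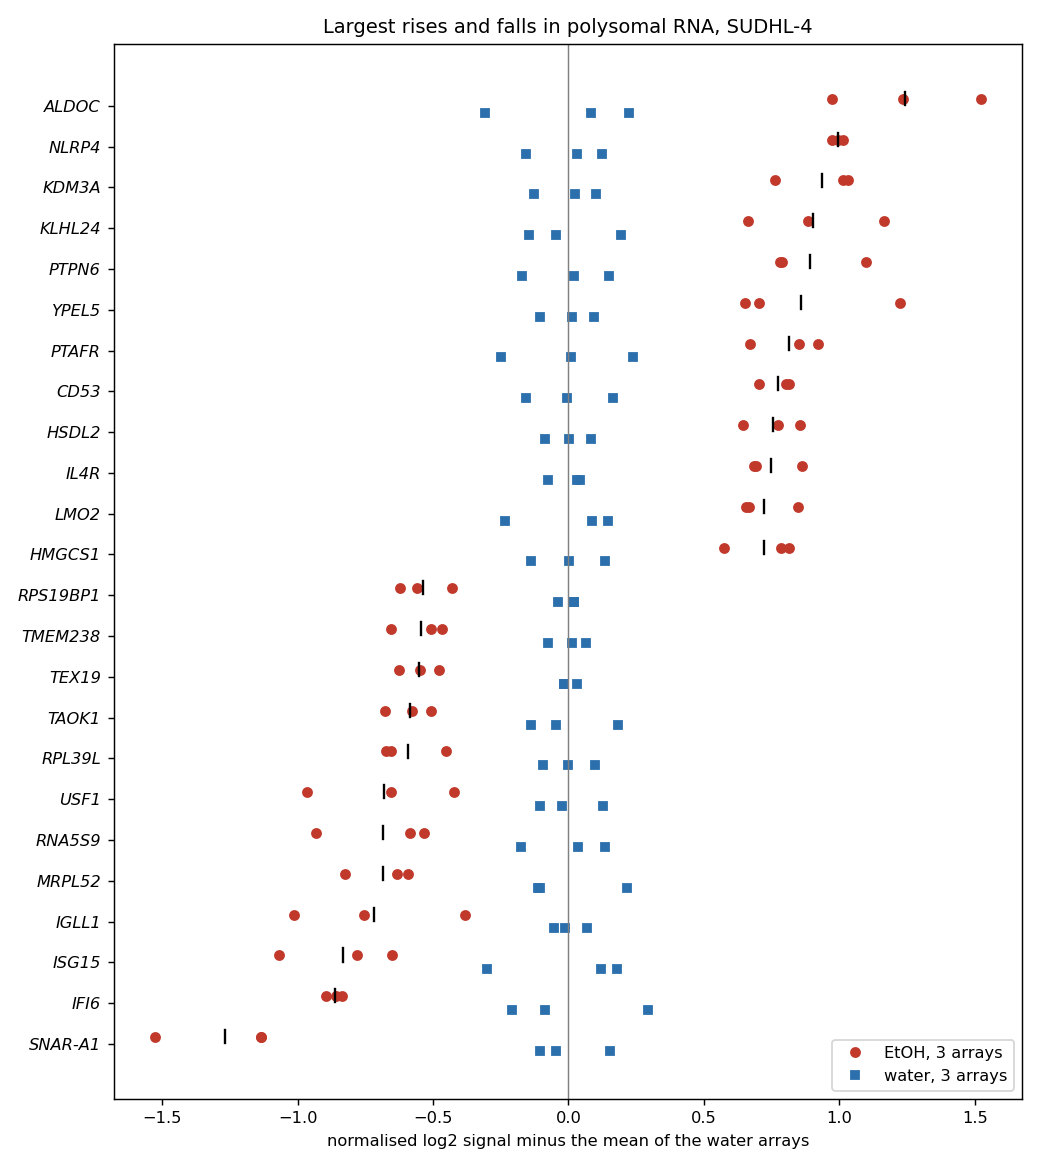
Normalised log2 signal of each array minus the mean of the 3 water arrays, for the 12 largest called rises and the 12 largest called falls with a symbol, with EtOH arrays as circles, water arrays as squares and the EtOH mean as a short bar. In each of the 24 genes the EtOH arrays lie clear of the water arrays, from ALDOC at 1.24 to SNAR-A1 at -1.27.

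The called falls included 3 small RNAs, 2 genes of the cytosolic ribosome, 1 of the mitochondrial ribosome and 2 interferon-stimulated genes. SNAR-A1, a small noncoding RNA made by RNA polymerase III that associates with the double-stranded RNA-binding factor NF90, had 6.30, 6.69 and 6.69 with EtOH, against 7.78, 7.72 and 7.98 with water. It fell to 0.415 of the water level (-1.27, SE 0.20, adjusted p = 0.0126, up to 0.105 without water replicate 3). EtOH replicate 1 lay near the floor of its array (6.11), so the size of the fall is uncertain (-1.70 to -1.14 over the settings tried). The call also ended without water replicate 1 or EtOH replicate 3. SNAR-A genes exist in many near-identical copies, so the signal cannot be given to 1 copy. RNA5S9, a 5S ribosomal RNA, which is also multicopy, had 6.75, 7.10 and 7.15 with EtOH and 7.51, 7.72 and 7.82 with water, a fall by 0.68 on the log2 scale (adjusted p = 0.0434). SNORD139, a small nucleolar RNA, had 6.62, 6.53 and 6.33 with EtOH and 7.14, 6.97 and 6.99 with water, a fall by 0.54 (adjusted p = 0.0492). EtOH replicate 1 was the lowest array for SNAR-A1 and RNA5S9 and the highest EtOH array for SNORD139. The calls of RNA5S9 and SNORD139 ended without any 1 of the water arrays or EtOH replicate 2 or 3, and that of RNA5S9 also without EtOH replicate 1 (adjusted p up to 0.215 and 0.243).

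Of 93 measured small RNAs and snoRNA host genes 3 fell, against 0.153% of all entries, and 8 were fitted higher. This list also holds the ribosomal RNA RNA28SN5, which is neither. At the thresholds of the study 24 were lower (4.4% of all entries) and 1 higher, and in 46 the EtOH arrays lay below all water arrays (12.7% of all entries). The median was -0.20 (-0.29 to -0.14 over the scalings), and with the block 10 fell (2.35% of all entries). RNA28SN5 had the largest log2 fold change of any entry, -2.10, with the 1 array described above far below the rest (SE 0.76, adjusted p = 0.202). Labelling started from oligo-dT, and most of these RNAs as well as replication-dependent histone mRNAs lack a poly(A) tail, so their signal rests on priming outside a regular tail. Whether priming differed between the arrays was not tested.

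Ribosomal protein mRNAs, the best-known targets of mTOR in translation, lay a little lower. Of 72 measured genes of the cytosolic ribosome 2 fell (0.153% of all entries), 9 were fitted higher, and the median was -0.16 (-0.24 to -0.05 over the scalings). RPL13 had 9.48, 9.71 and 9.69 with EtOH and 10.16, 10.26 and 10.06 with water, a fall by 0.53 (SE 0.10, adjusted p = 0.0393), with -0.64 and -0.42 from its 2 probes. RPL39L, a paralog of RPL39 enriched in testis, had 9.82, 9.62 and 9.60 with EtOH and 10.27, 10.18 and 10.37 with water, a fall by 0.59 (adjusted p = 0.0452). Both had all EtOH arrays below the water arrays, and both calls ended without any 1 of the water arrays or EtOH replicate 3, that of RPL13 also without EtOH replicate 1 and that of RPL39L without EtOH replicate 2 (adjusted p up to 0.148 and 0.216). RPL13A, which had 13.26, 13.27 and 13.21 with EtOH and 13.59, 13.48 and 13.63 with water, was not called (-0.32, adjusted p = 0.157). In 26 of the 72 the EtOH arrays lay below the water arrays (12.7% of all entries). At the thresholds of the study 7 were lower (4.4% of all entries) and 1 higher (5.42%). The mean level of the list was 12.72, 12.63 and 12.56 with EtOH and 12.83, 12.72 and 12.76 with water. Other mRNAs with the 5′ terminal oligopyrimidine start that mTOR acts on had a median of -0.10 over 16 genes with 0 called (-0.14 to 0.01 with 1 array left out, the highest without EtOH replicate 1), EEF1B2 being at -0.22 (adjusted p = 0.281) and EIF3F at 0.17 (adjusted p = 0.45).

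The mitochondrial ribosome had 1 fall among 77 genes, against 0.153% of all entries. This was MRPL52, with 8.17, 7.94 and 8.13 with EtOH and 8.98, 8.66 and 8.65 with water (-0.69, SE 0.12, adjusted p = 0.0269, up to 0.142 without water replicate 1). Its call was kept only without EtOH replicate 1. At the thresholds of the study 14 were lower (4.4% of all entries) and 1 higher. With the block 8 fell (2.35% of all entries) and 1 rose. The median was -0.07. MRPS34 had 9.53, 10.16 and 9.76 with EtOH and 10.77, 10.40 and 10.42 with water (-0.71, adjusted p = 0.104, 0.0244 with the block). Of 52 histone genes, 0 were called, and at the thresholds of the study 8 were lower (4.4% of all entries) and 0 higher. In the list 10 were fitted higher, and the median was -0.13. With 1 array left out that median ran from -0.27 (without water replicate 2) to -0.08 (without water replicate 1), and the mean level of the list was 7.63 in water replicate 2, below both other water arrays. Histone genes of a family are near copies, which leaves single entries uncertain. H4C12 had 8.01, 7.86 and 7.68 with EtOH and 8.85, 8.21 and 8.66 with water (-0.72, adjusted p = 0.0782, 0.0101 with the block), and the variant H2AX of the DNA damage response had -0.53 (adjusted p = 0.137, 0.0395 with the block).

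A pair of interferon-stimulated genes fell, while the median of the list was near 0. ISG15, a ubiquitin-like modifier, had 11.52, 11.39 and 11.10 with EtOH, against 12.29, 12.35 and 11.87 with water. Its EtOH arrays all lay below the water arrays, and it fell to 0.559 of the water level (-0.84, SE 0.15, adjusted p = 0.0251, up to 0.142 without water replicate 1). IFI6, a protein of the endoplasmic reticulum and mitochondria that protects infected cells, had 7.21, 7.27 and 7.25 with EtOH and 7.90, 8.40 and 8.02 with water (-0.86, SE 0.13, adjusted p = 0.0126, up to 0.0765 without water replicate 3). Its 2 probes gave -1.38 and -0.35. Water replicates 2 and 3 and EtOH replicate 3 each ended both calls when left out, and water replicate 1 that of ISG15. IRF7, the factor that amplifies interferon, had 6.84, 6.83 and 7.06 with EtOH and 7.33, 7.58 and 7.29 with water (-0.49, adjusted p = 0.0755, 0.0352 with the block). Of 21 measured members 2 were called lower (0.153% of all entries). At the thresholds of the study 6 were lower (4.4% of all entries) and 1 higher (5.42%). In the list 12 were fitted higher, and the median of 0.01 changed sign with the scaling (-0.05 to 0.04). The 1 higher member was TRIM22, with 0.52 (adjusted p = 0.145), named after its values were seen.

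Other called falls with a symbol had no list in common. IGLL1, a chain of the surrogate light chain of early B cells, had 9.13, 8.50 and 8.76 with EtOH and 9.46, 9.58 and 9.50 with water, a fall by 0.72 (adjusted p = 0.044, up to 0.198 without water replicate 3). Without the detection filter its difference was -0.24 (adjusted p = 0.226), and its call also ended without any other array except EtOH replicate 1. USF1, an E-box transcription factor, had 6.98, 7.52 and 7.29 with EtOH and 7.84, 7.92 and 8.07 with water, a fall by 0.68 (adjusted p = 0.044, up to 0.215 without water replicate 3, kept only without EtOH replicate 2), with -0.69 and -0.67 from its 2 probes. Neither overlapped between the groups. TAOK1, a kinase of the Hippo and MAP kinase pathways, fell by 0.59 (adjusted p = 0.0269), TEX19 by 0.55 (0.0269), TMEM238 by 0.54 (0.0492) and RPS19BP1, a regulator of SIRT1, by 0.54 (0.0269). TST, the mitochondrial thiosulfate sulfurtransferase, named after its values were seen, fell by 0.54 (adjusted p = 0.0393). Leaving out water replicate 1, 2 or 3 or EtOH replicate 3 each ended the calls of TAOK1, TEX19, TMEM238 and RPS19BP1 (adjusted p up to 0.125, 0.133, 0.221 and 0.142), as did EtOH replicate 1 for TAOK1 and TMEM238 and EtOH replicate 2 for TEX19, TMEM238 and RPS19BP1.

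**Figure D3:**
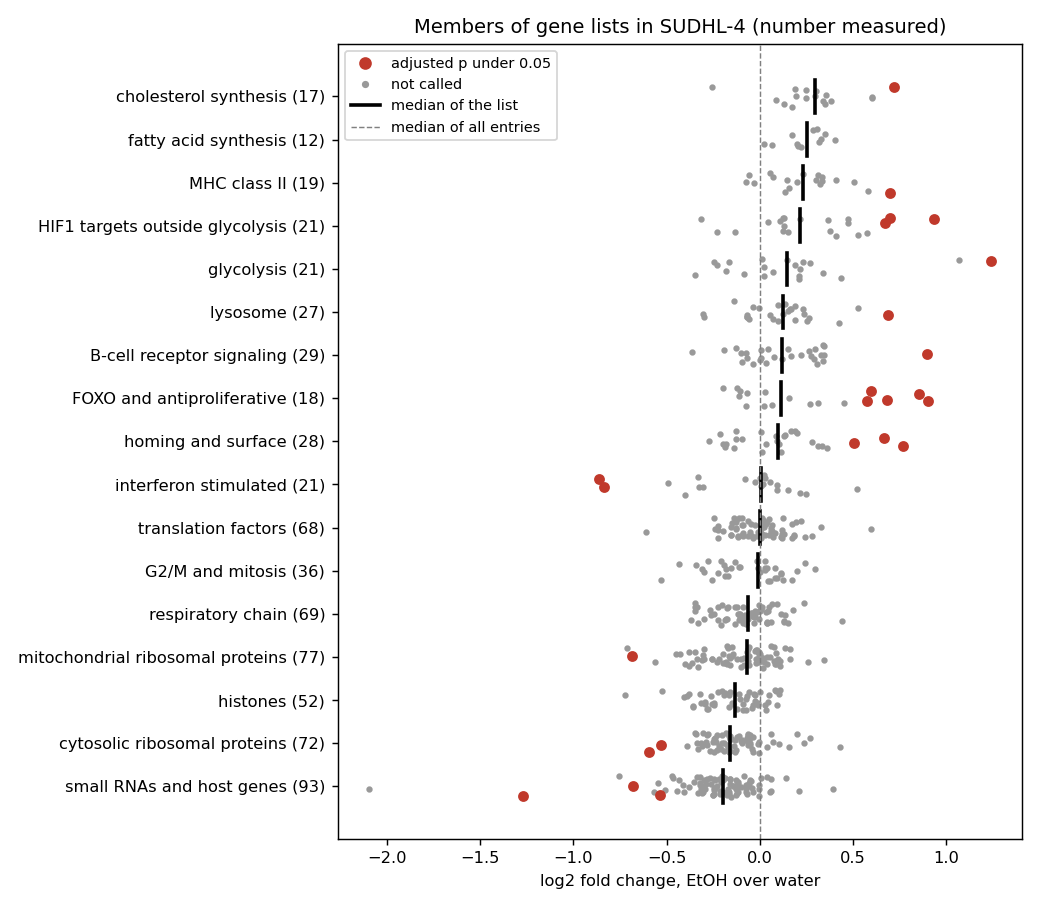
Log2 fold change of EtOH over water (x axis) of each measured member of 17 gene lists, with the number measured in brackets, called members as larger red points and the median of the list as a bar. Medians run from 0.30 for cholesterol synthesis to -0.20 for small RNAs and host genes, and the list of FOXO targets and antiproliferative genes holds 5 called rises.

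The lists of ethanol use and of the mTOR pathway held 0 called genes. With 0.545% of all entries called, 0 in lists this short says little about them. Of 19 listed enzymes of ethanol, acetaldehyde and acetate use only 6 were measured, with a median of 0.19. ALDH2, which oxidises acetaldehyde in mitochondria, was above background on all 3 EtOH arrays (6.49, 6.48 and 6.51) and on 0 of 3 water arrays (6.23, 6.19 and 6.22). It entered the test only through its EtOH arrays, so a higher value with EtOH was favored by the filter, also in that median. Its adjusted p was 0.195, and its difference has no exact size. ADH5, the alcohol dehydrogenase that every cell has, had 7.25, 7.48 and 7.50 with EtOH and 6.96, 7.41 and 7.21 with water (0.22, adjusted p = 0.418), so that the groups overlapped, and CAT, the catalase, had 0.28 (adjusted p = 0.31). Of 30 genes of the mTOR pathway the kinase MTOR itself came nearest to a call, with 9.49, 9.71 and 9.47 with EtOH and 9.05, 9.15 and 9.08 with water (0.46, adjusted p = 0.0518, 0.0184 with the block). RPS6KB2, an S6 kinase, had -0.48 (adjusted p = 0.0782, 0.0277 with the block), and DDIT4, which inhibits mTOR complex 1, had 0.30 (adjusted p = 0.188). The median of that list, -0.04, changed sign with the scaling (-0.09 to 0.02).

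Stress and translation lists were likewise without a call, which is near the share of 0.545% over all entries. These were 68 translation factors (median -0.00), 24 targets of ATF4 (-0.07), 18 aminoacyl-tRNA synthetases (0.10), 31 folding factors of the endoplasmic reticulum (0.07), 30 cytosolic and mitochondrial chaperones (-0.02), 22 antioxidant genes (-0.07), 19 stress granule proteins (0.03) and 26 autophagy genes (0.10). Within them EIF2AK3, the kinase PERK that phosphorylates the initiation factor eIF2, had 7.74, 7.39 and 7.36 with EtOH and 6.91, 6.95 and 6.83 with water (0.60, adjusted p = 0.0782, 0.0112 with the block). HSPA1B, the inducible HSP70, had 7.80 on EtOH replicate 1 and 8.89 and 8.71 on the other EtOH arrays, against 8.92, 9.02 and 8.87 with water (-0.47, adjusted p = 0.264). Cell cycle lists had 0 calls too, with medians of 0.01 over 40 genes of G1/S and replication and -0.01 over 36 of G2/M. CCNB1, the mitotic cyclin, had 8.88, 8.81 and 9.04 with EtOH and 9.28, 9.54 and 9.49 with water (-0.53, adjusted p = 0.151, 0.0314 with the block), and CDC20, which activates the anaphase-promoting complex, -0.43 (adjusted p = 0.101, 0.0296 with the block). Of 37 genes of ribosome biogenesis, 34 of the proteasome, 69 of the respiratory chain, 23 of NF-kB, 20 of the BCL2 family and caspases, 17 immediate early genes, 20 of the methionine cycle and polyamines and 12 p53 targets, 0 were called. AMD1, which makes the propylamine donor of polyamines, had 7.80, 8.36 and 8.09 with EtOH and 8.65, 8.62 and 8.73 with water (-0.58, adjusted p = 0.0571, 0.021 with the block). GADD45A, TP53INP1 and XPC of the p53 list had 0.39, 0.48 and 0.44 (adjusted p = 0.0833, 0.0906 and 0.196).

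None of the genes that the study singles out on its arrays was called in SUDHL-4 with EtOH. For FKBP11, MARS1, CDC25A, TCL1A and LYN the paper itself reports polysome profiles with little or no change with EtOH and a response to INK128. For YWHAZ it reports decreased translation with EtOH. These profiles were measured by RT-qPCR of gradient fractions from SUDHL-2. By western blot the paper also reports protein changes that went with the profiles. It gives total mRNA as lower for FKBP11 with EtOH and higher for TCL1A with INK128. FKBP4, a co-chaperone of HSP90, had 11.96, 12.09 and 11.96 with EtOH and 12.11, 12.09 and 12.03 with water (-0.07, SE 0.12, adjusted p = 0.791). YWHAZ, a 14-3-3 adaptor, had 9.72, 10.09 and 9.83 with EtOH and 10.01, 10.18 and 10.07 with water (-0.20, SE 0.11, adjusted p = 0.40), its 2 probes giving -0.47 and 0.06. In both genes the groups overlapped. FKBP11 had -0.16, MARS1 0.12, CDC42 0.08, TCL1A 0.04 and CD27 0.13, with adjusted p of 0.496 to 0.919. CDC25A, a phosphatase that starts the cell cycle, had 8.30, 8.46 and 8.27 with EtOH and 8.50, 8.49 and 8.57 with water, without overlap (-0.18, adjusted p = 0.392), with -0.36 and 0.01 from its 2 probes. TCL1B was not above background in either group. GAPDH had -0.09 (adjusted p = 0.761, and 0.08 with quantile normalization) and ACTB -0.25 (adjusted p = 0.423). LYN, TCL1A, CDC42 and CDC25A also changed sign under some settings.

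SUDHL-2, a line of the activated B-cell-like subtype with 2 EtOH and 3 water arrays, shows which of these responses were shared. Of the 64 called entries 57 were above background on at least 1 SUDHL-2 array, and the 7 others (10.9%, against 4.1% of all entries), with NLRP4 and TENT5C among them, had no measured level there. Background values in SUDHL-2 can lower the spread that the groups share in the fit, which favors calls of such entries. In SUDHL-2, 15.3% of all entries passed an adjusted p under 0.05. Of the 40 measured rises of SUDHL-4, 12 rose in SUDHL-2 too, and of the 17 measured falls 7 fell, while 0 passed in the opposite direction. The difference between the lines itself, the SUDHL-4 response minus the SUDHL-2 response, was called for 381 entries (3.25%), 234 higher and 147 lower, and for 14 of the 57. These 57 were chosen by their SUDHL-4 values, so a larger response in SUDHL-4 is favored among them.

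ALDOC had the largest line difference among the measured rises. Its levels in SUDHL-2 were 11.95 and 11.65 with EtOH and 11.78, 11.59 and 11.93 with water, a difference of 0.03 against 1.24 in SUDHL-4 (line difference 1.21, SE 0.24, adjusted p = 0.0152). The SUDHL-2 water level was thus already above that of SUDHL-4 with EtOH. GBE1 gave 0.67 in SUDHL-4 and -0.12 in SUDHL-2 (difference 0.79, adjusted p = 0.0392), YPEL5 0.86 and -0.07 (0.93, adjusted p = 0.0444) and BTG1 0.68 and -0.06 (0.74, adjusted p = 0.0322). HMGCS1, with 11.01 and 11.23 on EtOH and 10.30, 10.11 and 9.99 on water arrays of SUDHL-2, rose there by 0.98, and the difference of -0.26 was not called (adjusted p = 0.465). PFKFB4 had 1.07 in SUDHL-4 and 1.19 in SUDHL-2 (difference -0.12, SE 0.42, adjusted p = 0.906).

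Among the falls, ISG15 and IFI6 had -0.84 and -0.86 in SUDHL-4 and 0.14 and 0.11 in SUDHL-2, and the differences of -0.98 and -0.97 were called (adjusted p = 0.0292 and 0.0189). IGLL1 (-0.72 and 0.27), MRPL52 (-0.69 and 0.21) and RPL39L (-0.59 and 0.21) differed likewise, by -0.98, -0.89 and -0.80 (adjusted p = 0.0264, 0.0191 and 0.0294). RPL13 fell in both lines, by 0.53 in SUDHL-4 and by 1.61 in SUDHL-2, and the difference of 1.08 was called (adjusted p = 0.00195). By list, the median of cholesterol synthesis was 0.30 in SUDHL-4 and 0.44 in SUDHL-2, that of HIF1 targets outside glycolysis 0.22 and 0.28, that of MHC class II 0.23 and 0.16, and that of small RNAs -0.20 and -0.09, with all entries at 0.001 and 0.07. No member of the cholesterol list was called for the difference, and 1 each way was for the HIF1 targets.

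**Figure D4:**
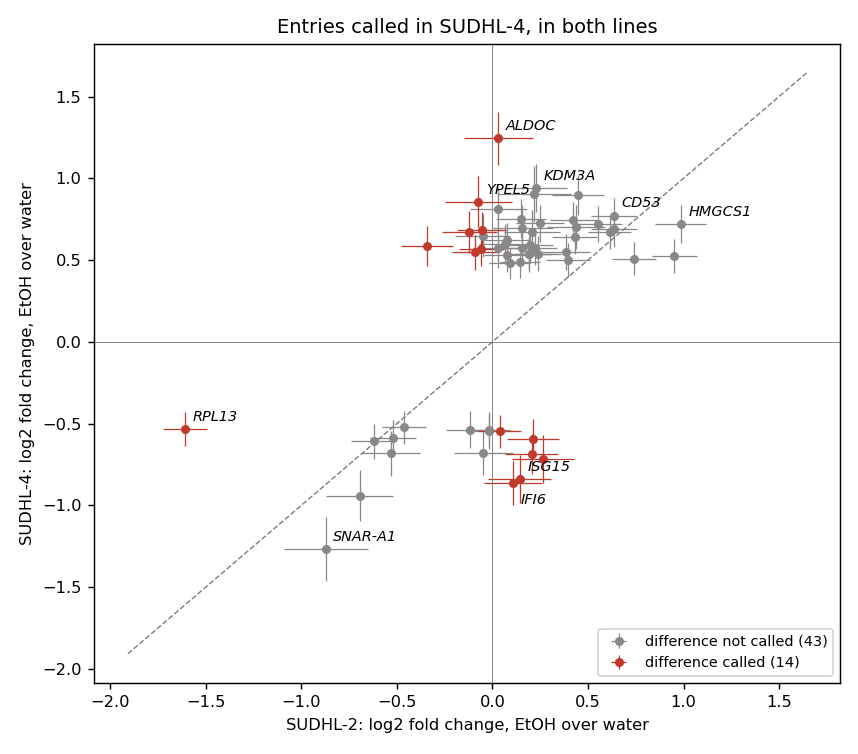
Log2 fold change of EtOH over water in SUDHL-4 (y axis) against SUDHL-2 (x axis) for the 57 entries called in SUDHL-4 and above background on a SUDHL-2 array, with bars of 1 SE and a dashed line of equal response. The 14 entries whose line difference was called are red, among them ALDOC at 1.24 and 0.03 and RPL13 at -0.53 and -1.61.

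The largest line differences, among entries with p under 0.05 in SUDHL-4, belonged to genes that were much lower in SUDHL-2 with EtOH. MRPS34 had 7.76 and 7.16 in SUDHL-2 with EtOH and 10.31, 9.73 and 9.96 with water, so that its -0.71 in SUDHL-4 stood beside -2.54 (difference 1.83, adjusted p = 0.00399). H2AX (-0.53 and -2.37) and LTBP3 (-0.30 and -2.12) were likewise lower in SUDHL-2, with differences of 1.84 and 1.82. HSPBP1 had 6.22 and 6.13 in SUDHL-2 with EtOH and 8.94, 8.31 and 8.37 with water, but with EtOH it was above background on only 1 of the 2 arrays and lay about at the floor, so its difference has no exact size. On the other side BFSP2 had -0.44 in SUDHL-4 and 0.60 in SUDHL-2 (-1.04), TMEM223 -0.39 and 0.62 (-1.01), NME3 -0.31 and 0.77 (-1.08) and the helicase PIF1 -0.31 and 0.68 (-0.99), each with adjusted p of no more than 0.00685. None of these 8 was called in SUDHL-4 on its own.

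INK128 gave the other view of the same line. The 3 INK128 and 3 DMSO arrays of SUDHL-4 are different arrays from those of EtOH, and they differ from them in agent, exposure time (24 h and 48 h) and vehicle together, so these cannot be told apart. With INK128, 34.2% of entries passed an adjusted p under 0.05, 2011 higher and 2004 lower. Of the 46 rises with EtOH, 32 rose and 2 fell with INK128, and of the 18 falls 5 rose and 5 fell. The difference of the responses, EtOH minus INK128, was called for 1738 entries (14.8%), 911 higher and 827 lower, and for 28 of the 64.

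Several antiproliferative and B-cell genes moved the same way with both agents and further with INK128. KLHL24 rose by 0.90 with EtOH and 2.78 with INK128 (difference -1.88, adjusted p = 0.000462), BTG1 by 0.68 and 1.54 (-0.86, adjusted p = 0.0121), PIK3IP1 by 0.58 and 1.56 (-0.98, adjusted p = 0.000975), TXNIP by 0.60 and 1.93 (-1.33, adjusted p = 0.000375) and IL4R by 0.75 and 1.69 (-0.95, adjusted p = 0.00104). Over the FOXO and antiproliferative list the median was 0.11 with EtOH and 1.08 with INK128, and 11 of 18 differences were called, all in the direction of a higher value with INK128. CD53 (0.77 and 0.90) and NLRP4 (0.99 and 1.45) did not differ by the test (adjusted p = 0.654 and 0.0537). IGLL1 moved in opposite directions, falling by 0.72 with EtOH and rising by 1.84 with INK128 (difference -2.55, adjusted p = 3.71e-06), and it had the largest difference of the 64 called entries. BACH2, a repressor of plasma cell fate, had 0.24 with EtOH and 2.52 with INK128 (-2.28, adjusted p = 6.48e-05), and CD24 -0.29 and 1.55 (-1.84, adjusted p = 7.9e-05). CD24 was above background on 2 of the 3 DMSO arrays, at a mean of 6.26 near the floor, which leaves the size of its INK128 response uncertain.

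Several metabolic genes differed in the other direction. HMGCS1 rose by 0.72 with EtOH and fell by 0.76 with INK128 (difference 1.48, adjusted p = 5.37e-05). ALDOC rose by 1.24 with EtOH and had -0.32 with INK128 (difference 1.57, adjusted p = 0.000427), and PFKFB4 had 1.07 and -0.51 (1.58, adjusted p = 0.00358). Over cholesterol synthesis the median was 0.30 with EtOH and -0.41 with INK128, and 8 of 17 differences were called, all higher with EtOH. Over fatty acid synthesis it was 0.25 and -0.29 (4 of 12, all higher with EtOH) and over glycolysis 0.14 and -0.33 (10 of 21 higher and 1 lower). KDM3A, in contrast, rose by 0.94 with EtOH and 0.82 with INK128, and the difference of 0.12 was not called (adjusted p = 0.786). Chemokine CCL4L1 (0.56 and -1.06) and COX7B of the respiratory chain (0.44 and -1.17) had differences of 1.62 and 1.60 (adjusted p = 0.000238 and 0.00184). The mitochondrial ribosomal list was at -0.07 with EtOH and -0.40 with INK128, with 16 of 77 differences called, all higher with EtOH, while the cytosolic ribosomal list was at -0.16 and -0.06, with 11 of 72 higher and 2 lower, against 14.8% of all entries in either direction. SNAR-A1 fell with both, by 1.27 and 1.41 (difference 0.14, adjusted p = 0.741).

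**Figure D5:**
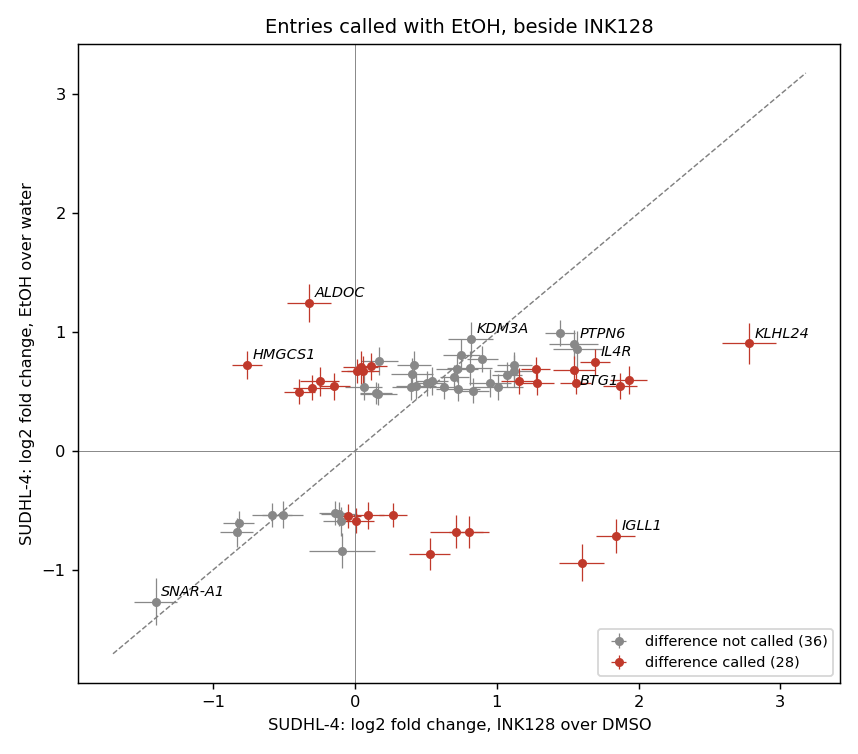
Log2 fold change with EtOH over water (y axis) against INK128 over DMSO (x axis) in SUDHL-4 for the 64 entries called with EtOH, with bars of 1 SE and a dashed line of equal response. The 28 entries whose difference was called are red, with HMGCS1 at 0.72 and -0.76 on one side and IGLL1 at -0.72 and 1.84 on the other.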

How the data were processed

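Polysomal RNA (fractions 9 to 11 of 11 from 10 to 50% sucrose gradients) was labelled from oligo-dT and hybridised to Illumina HumanHT-12 arrays, 1 colour, and read by the authors with GenomeStudio 1.9.0 according to the submitters' processing notes. The sources differ on the version of the array. The authors deposited a signal intensity and a detection p-value per probe, not normalized, and a separate set of Z-scores, in which the deposited score of a probe is its log signal relative to the mean and SD of its array. For steps on the intensity before export, the sources used here give nothing.

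Intensities were floored at the lowest detected signal of the array, taken to log2 and standardised per array over the 14450 kept probes, then multiplied by the mean SD (2.03) and shifted by the mean (8.59), and probes of 1 symbol were averaged. Groups were fitted with limma 3.58.1 (R 4.3.3, package data.table, version 1.17.8) on the 11 arrays of the EtOH experiment (7 residual degrees of freedom), and the INK128 comparison on the 12 SUDHL-4 arrays, with Benjamini-Hochberg adjustment over all 11733 entries and entries with an adjusted p under 0.05 were called. Thresholds of the study were applied to p-values of limma. Tables and figures used Python 3.11.15, pandas 2.3.3, numpy 2.4.6 and matplotlib 3.10.9. The number of arrays limits the precision, and the depth of an array is the number of probes above background.

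Named genes were the 12 largest called rises and falls with a symbol, up to 3 members with the smallest p per list, genes the study singles out with GAPDH and ACTB, and up to 4 each way for each difference. The comparison, the 38 gene lists, the 9 marker lists and this rule were chosen with earlier results of these data known. The alternatives were 17 settings (scaling, background, probe filter, probe averaging, variance model, array weights, replicate block and the arrays fitted) and each array left out in turn.

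Replicate numbers were checked for pairing. Deviations of same-numbered EtOH and water arrays from their group means correlated at 0.39, 0.198 and 0.145 in SUDHL-4 and 0.429 and 0.55 in SUDHL-2 by the numbers of the titles. The numbers in the sample names pair SUDHL-4 arrays otherwise, with correlations of 0.39, 0.039 and 0.251. The pairing is therefore taken from the titles, not from a stated shared culture. These correlations come from the same arrays and do not decide between the numberings.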

Additional observations from a re-analysis of the deposited data

Results flagged for a closer look

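For 22 of the named genes the response to EtOH differed between SUDHL-4 and SUDHL-2 by a test of the difference itself (limma over 11 arrays, adjusted p under 0.05). The value given is the SUDHL-4 response minus the SUDHL-2 response on the log2 scale. Many of these genes were named because of their SUDHL-4 response or because of this difference, and SUDHL-2 had only 2 EtOH arrays.

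Genes that were higher with EtOH in SUDHL-4 and near or below 0 in SUDHL-2 were ALDOC (1.21, adjusted p = 0.0152), YPEL5 (0.93, 0.0444), GBE1 (0.79, 0.0392) and BTG1 (0.74, 0.0322). BMF (1.3, adjusted p = 0.00167), a cell death gene of the BCL2 family, was not called in SUDHL-4, where its groups overlapped (0.25, adjusted p = 0.336), and had -1.06 in SUDHL-2.

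Genes that were lower in SUDHL-4 and at or above 0 in SUDHL-2 were IGLL1 (-0.98, adjusted p = 0.0264), ISG15 (-0.98, 0.0292), IFI6 (-0.97, 0.0189), MRPL52 (-0.89, 0.0191), RPL39L (-0.80, 0.0294) and TEX19 (-0.59, 0.0479). CDC20 (-0.74, adjusted p = 0.0345), NME3 (-1.08, 0.00532), BFSP2 (-1.04, 0.00685), TMEM223 (-1.01, 0.00685) and PIF1 (-0.99, 0.00485) were of the same kind without a call in SUDHL-4.

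Genes that were lower in both lines and much lower in SUDHL-2 were H2AX (1.84, adjusted p = 0.00101), MRPS34 (1.83, 0.00399), LTBP3 (1.82, 0.000427), PRMT1 (1.46, 0.0242), an arginine methyltransferase with -0.70 in SUDHL-4 and -2.16 in SUDHL-2, and RPL13 (1.08, 0.00195). RPL13 alone of these was called in SUDHL-4. The difference of HSPBP1 was 1.86 (adjusted p = 0.00899), but in SUDHL-2 with EtOH it lay about at the floor and was above background on 1 of 2 arrays, so that this value is not exact.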

How the results depend on the processing

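The 64 calls of EtOH against water became 26 with median centring (61.5% higher, against 71.9%), 113 with Z-scores over all probes (84.1%), 112 with the deposited Z-scores (81.2%), 100 with probes detected on at least 1 array (79 higher), 42 with each probe tested on its own, 592 with array weights (59.3%), 642 with the block of title numbers (57.0%), 621 with that of sample-name numbers, 29 with the 6 arrays alone and 22 with all 23 arrays. Without a detection filter 75 were called (92.0% higher). Leaving out 1 array gave 2 to 188, the highest without SUDHL-2 water replicate 2. Among alternatives added after the data were seen, the title block on the 6 arrays gave 240, and over 14636 entries the blocks gave 77 by titles and 0 by sample names (limma, 3186 at an unadjusted p under 0.05). The 1152 entries at the study's thresholds became 584 without a filter and 300 with 23 arrays, and 229 to 1227 with 1 array left out. Median centring left 35.4% of them higher, against 55.2%, and the 2 Z-scores 68.7% and 65.6%. The line difference (381) became 1332 with array weights, 1352 and 1368 with the blocks of title and name numbers and 177 with 23 arrays, and ran from 118 (without SUDHL-2 EtOH replicate 2) to 1074 (without SUDHL-4 EtOH replicate 1), with 77.9% and 78.9% higher under the Z-scores over all probes and as deposited, against 61.4%. The difference of EtOH and INK128 (1738) became 1086 without a filter and 4250 with weights, and 1151 to 2536 with 1 array left out. The cause was not tested.

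Fold changes of named genes changed sign in 12 instances under other settings and in 5 with an array left out. LYN went to -0.02003 with median centring, -0.01795 with Z-scores over all probes and without a filter, -0.02474 with the deposited Z-scores, -0.00292 with probes detected on at least 1 array, -0.01224 with array weights and -0.004389 over 14636 entries with or without a block, GAPDH to 0.0796 with quantile normalization, CDC25A to 0.007064 with probes detected on all 6 arrays and TCL1A to -0.04238 with weights. With an array left out LYN lay between -0.02977 and 0.03724, TCL1A between -0.181 and 0.2117, and the log2 fold change of CDC42 between -0.05847 and 0.2267. None of these 5 genes was called.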
